A study of Mus musculus with 12 samples.

Results

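Atg4a and Sgms2 are the protein-coding genes with the most sequence under a single H4K20me3 domain in mouse embryonic stem cells, 2 of 21523 such genes on chromosomes 1 to 19 and X. They were chosen by that measured value in the series' domain list, so their coverage is given as a description, without a test. The study profiled the histone mark H4K20me3 by ChIP-seq in the embryonic stem cell line dTKO, of genotype Suv39h1fl/fl; Suv39h2-/-; Setdb1fl/fl. The labels name 12 libraries, with 3 replicates at each of 4 times (0, 12, 24 and 48 h) after auxin (100 μg/ml) and dTAG13 (0.5 μM), and all 12 share the genotype and carry both agents in their treatment label. The question of the series is how the mark decays once H3K9 methyltransferases are removed. The values analysed here come from 1 list of 28210 domains, read on mm10. It names no sample and holds no signal, so neither time nor replicate error enters a value below. The series text calls the replicates biological; whether they were separate cultures, and whether the line is a single clone, is not given.

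H4K20me3 marks constitutive heterochromatin. It is written by the methyltransferases Kmt5b and Kmt5c, which HP1 proteins bring to chromatin that already carries H3K9me3. Atg4a encodes a cysteine protease of autophagy, which trims ATG8-family proteins so that they can be attached to membrane lipid and later releases them again. Sgms2 encodes a sphingomyelin synthase of the plasma membrane, which moves phosphocholine from phosphatidylcholine to ceramide.

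The wide domain of Atg4a began well inside the gene and stopped short of its end. Atg4a (gene ID 666468) lies on the plus strand at chrX:140953845-141164194 of mm10, a body of 210.3 kb. Its only domain, chrX:140994901-141155700, was 160.8 kb wide and covered 76.4% of the body. It began 41.1 kb after the first annotated start and ended 8.49 kb before the end of the gene, so it ran from 19.5% to 96.0% of the body. No other annotated gene shared a base with it.

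The wide domain of Sgms2 likewise left the upstream end of the gene free. Sgms2 (gene ID 74442) lies on the minus strand at chr3:131318985-131491443, a body of 172.5 kb. Its wide domain, chr3:131373301-131463750, measured 90.45 kb and by itself covered 52.4% of the body, from 27.7 to 118.1 kb after the first annotated start. A pair of short domains of 1.50 and 1.65 kb lay further downstream, at 88.7 to 89.6% and 96.3 to 97.3% of the body. With them, 93.6 kb or 54.3% of the body was covered, and outside the wide domain the share was 3.84%. No annotated gene other than Sgms2 shared a base with the wide domain.

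**Figure D1:**
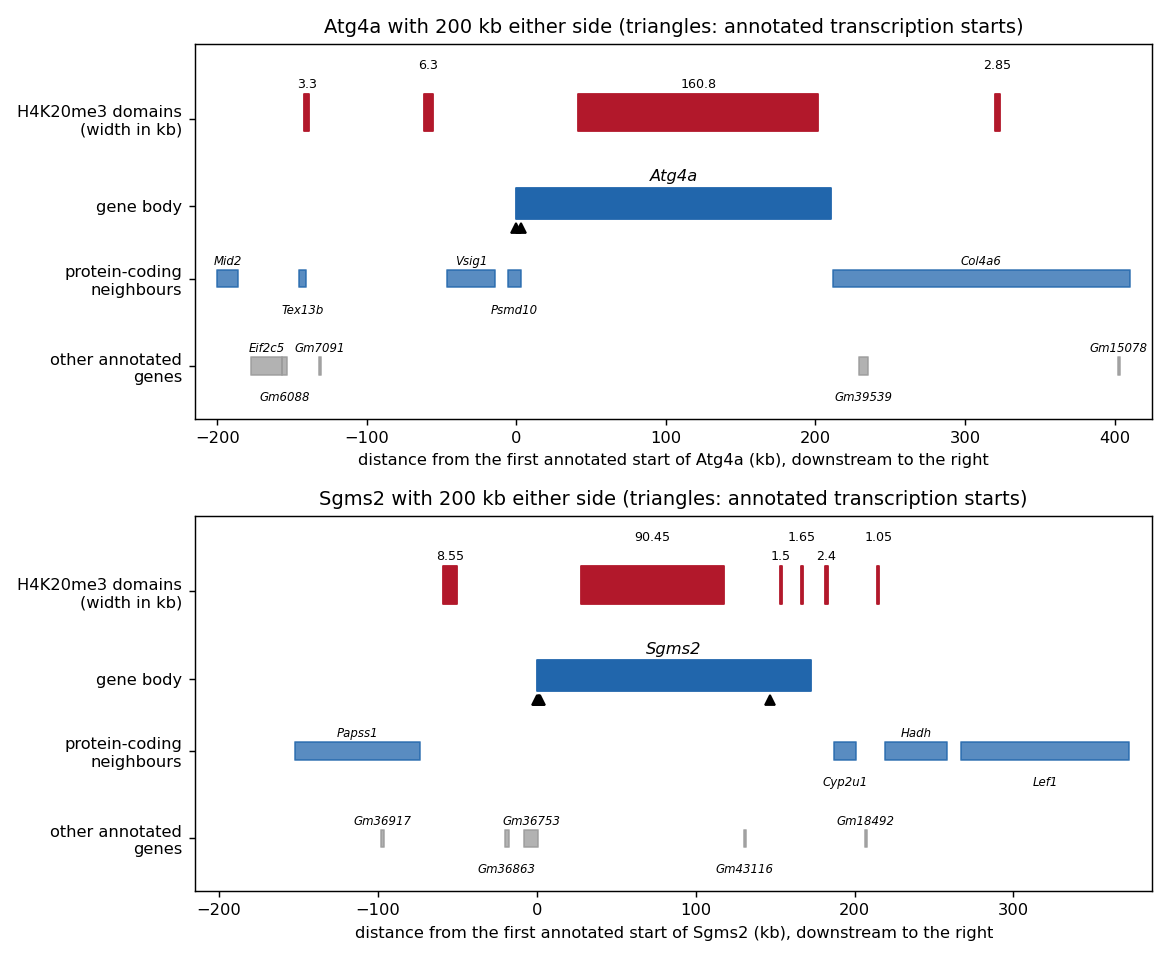
Maps of Atg4a (top) and Sgms2 (bottom) with 200 kb either side, as distance in kb from the first annotated start with transcription to the right; red bars are domains with their width in kb, blue bars protein-coding genes, grey bars other annotated genes and triangles annotated starts. The domain of 160.8 kb and the domain of 90.45 kb each lie inside the gene body, downstream of the first annotated starts.

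Transcription of both genes is annotated to begin outside the wide domains. RefSeq promoter windows (GRCm38.p6, 250 bases before to 50 after each annotated start) were available for 2 starts of Atg4a and 6 starts of Sgms2. None of the 8 windows shared a base with a domain. Both Atg4a windows and 5 of the 6 Sgms2 windows lay upstream of the wide domain, while the last start of Sgms2 lay 28.4 kb beyond it, 146.5 kb from the first start. The wide domain of Sgms2 thus stood between its first 5 starts and its last. The window of that start was 6.36 kb from the nearest domain, the short one of 1.50 kb. Over 17274 protein-coding genes with such a window, 1.59% had a window that shared a base with a domain, so a start free of domains is the common state.

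Starts upstream of both wide domains, and 1 beyond that of Sgms2, are printed 5′ to 3′ on the strand of the gene. Each CG dinucleotide is in capitals. These starts are printed because the position of the wide domains is given relative to them. They are both windows of Atg4a (chrX:140953595-140953894 and chrX:140956657-140956956, plus strand) and windows 1, 3 and 6 of Sgms2, counted downstream (chr3:131491394-131491693, chr3:131490181-131490480 and chr3:131344859-131345158, minus strand).
Atg4a start 1: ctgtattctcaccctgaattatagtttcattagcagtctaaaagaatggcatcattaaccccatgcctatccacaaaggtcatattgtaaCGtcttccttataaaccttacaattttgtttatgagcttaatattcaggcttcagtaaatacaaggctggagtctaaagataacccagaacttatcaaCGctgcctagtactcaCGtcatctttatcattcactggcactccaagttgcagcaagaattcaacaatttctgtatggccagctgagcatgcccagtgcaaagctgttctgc
Atg4a start 2: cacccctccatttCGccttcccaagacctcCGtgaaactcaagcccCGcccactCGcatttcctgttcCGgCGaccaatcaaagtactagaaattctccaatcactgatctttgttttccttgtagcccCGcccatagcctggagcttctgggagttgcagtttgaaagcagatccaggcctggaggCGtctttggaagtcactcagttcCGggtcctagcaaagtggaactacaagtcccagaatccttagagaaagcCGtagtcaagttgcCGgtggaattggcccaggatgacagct
Sgms2 start 1: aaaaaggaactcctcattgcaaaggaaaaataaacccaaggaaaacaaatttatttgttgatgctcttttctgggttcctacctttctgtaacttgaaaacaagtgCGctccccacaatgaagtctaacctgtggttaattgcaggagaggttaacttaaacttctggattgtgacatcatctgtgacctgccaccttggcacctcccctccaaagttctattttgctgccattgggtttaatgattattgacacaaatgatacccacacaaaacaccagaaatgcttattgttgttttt
Sgms2 start 3: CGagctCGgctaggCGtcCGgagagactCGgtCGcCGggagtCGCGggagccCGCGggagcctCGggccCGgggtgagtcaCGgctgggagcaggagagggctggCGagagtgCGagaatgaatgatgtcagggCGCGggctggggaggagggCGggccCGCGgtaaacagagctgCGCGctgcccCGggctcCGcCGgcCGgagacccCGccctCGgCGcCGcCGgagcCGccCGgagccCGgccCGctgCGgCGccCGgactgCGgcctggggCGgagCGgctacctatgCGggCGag
Sgms2 start 6: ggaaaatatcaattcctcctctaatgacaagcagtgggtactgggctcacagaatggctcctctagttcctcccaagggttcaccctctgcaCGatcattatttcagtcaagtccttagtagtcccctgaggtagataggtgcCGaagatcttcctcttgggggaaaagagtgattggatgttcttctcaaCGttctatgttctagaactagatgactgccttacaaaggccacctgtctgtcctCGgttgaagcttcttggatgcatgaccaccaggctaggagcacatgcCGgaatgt

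The CG content of these windows differed widely. Atg4a window 1 held 3 CG and window 2, 3.06 kb downstream, held 11. Window 2 also contains the start of Psmd10, which is transcribed the other way from 196 bases upstream of Atg4a start 2. In Sgms2, window 1 held 1 CG, window 3 held 44, and window 6, beyond the wide domain, held 5. The motif searched was CG, which reads the same on both strands, and it occurs at least once in 95.5% of 21045 windows of protein-coding genes, with a median of 13 per window. Sgms2 window 3 had more CG than 97.1% of those windows. Sgms2 windows 2, 4 and 5 held 18, 12 and 4 CG.

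Set against the whole list, both domains were far wider than usual. The Atg4a domain was 53.6 times and the Sgms2 domain 30.1 times as wide as the median domain, which measured 3.00 kb. On its own chromosome, the Atg4a domain was number 6 by width of 2442 domains on X that do not begin at the first base, and it made up 1.04% of their bases. The Sgms2 domain was the widest of 1849 on chromosome 3 and made up 1.30% of their bases. The 5 wider domains on X shared no base with a protein-coding gene.

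Among domains of 90 kb or wider, those of Atg4a and Sgms2 were the ones inside a protein-coding gene. This cut lies just under the width of the Sgms2 domain (90.45 kb), and both genes were chosen for such width, so this is a description only. On chromosomes 1 to 19 and X, 33 domains were 50 kb or wider without beginning at the first base, 14 on X and 19 on autosomes. Of these, 15 shared a base with a protein-coding gene and 8 lay wholly inside one. At 90 kb or wider there were 16, of which these 2 lay wholly inside such a gene. The next gene by this measure was Ccdc148, on chromosome 2, with 64.2 kb under 1 domain, followed by Ccl21b (63.45 kb), a chemokine gene on chromosome 4, Atp6v0a2 (61.8 kb), a subunit of the vacuolar proton pump, Traf5 (50.55 kb), a signalling adaptor, and Pik3c2g (50.4 kb), a lipid kinase. Of all 28172 domains on these chromosomes that do not begin at the first base, 5127 lay wholly inside a protein-coding gene, with a median width of 2.70 kb. Lying inside a gene is therefore not particular to these 2, and the counts of 8 of 33 and 2 of 16 are no result about wide domains. The share of all domains that share a base with such a gene was not computed.

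**Figure D2:**
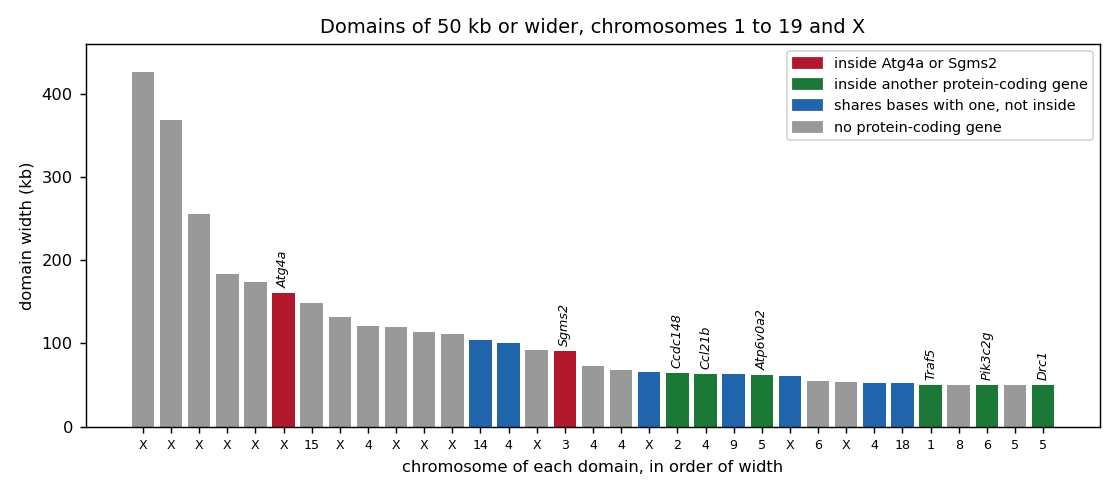
Width in kb of the 33 domains of 50 kb or wider on chromosomes 1 to 19 and X, in order of width and labelled by chromosome, coloured by their relation to protein-coding genes. The Atg4a domain (160.8 kb) and the Sgms2 domain (90.45 kb) are the widest of the 8 that lie inside a protein-coding gene.

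A domain in this list need not rest on sequenced bases. The list also holds 5 domains of 3000 to 3058 kb that begin at the first base of a chromosome, where mm10 holds no sequence. No genome sequence was used here, so whether unsequenced or repeated stretches lie under the Atg4a and Sgms2 domains was not tested. Both edges of each of the 2 domains fell on the grid of 150 bases on which 28209 of the 28210 domains begin and end.

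By the share of the body covered, both genes stood first among genes of 100 kb or longer. Of 2425 protein-coding genes of 100 kb or longer, 2 had at least 50% of the body under domains, Atg4a and Sgms2; over all protein-coding genes that share was 0.739%. The next of the long genes was Col6a4 on chromosome 9, a collagen gene of 106.5 kb with 34.7% covered. The rank of Sgms2 depends on this cut. Under 100 kb, Atp6v0a2 (95.4 kb) had 64.8% covered and Ccl21b (83.71 kb) 75.8%, both above Sgms2, and Traf5 (95.4 kb) had 53.0%. A higher share than that of Atg4a was found for 101 protein-coding genes, but the longest of these, Cct6a, had a body of 59.09 kb and their median length was 1.88 kb. For Sgms2, 146 genes had a higher share, with a median length of 2.94 kb, and Atg4a was the longest of them.

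Genes of like length met domains often, but short ones. Apart from Atg4a and Sgms2, 898 protein-coding genes were 150 to 300 kb long, and 492 of them met a domain; with both counted the share was 54.9%. In those 492, the median covered length was 4.65 kb, or 2.17% of the body. The highest share was 27.4%, in Catspere2, and the widest stretch under a single domain was 22.2 kb, in Rasgrf2. On X, 26 of 41 genes of this length met a domain, with a median of 2.40% covered and a highest share of 13.8%, in Hsf3. On chromosome 3, 25 of 48 did, with a median of 1.91% and a highest share of 8.44%, in Veph1.

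The genes nearest in length on the same chromosome carried little of the mark's domains. Beside Atg4a on X, F8 (212.4 kb), the gene of coagulation factor VIII, had 5 domains over 9.32% of its body. Col4a5 (213.9 kb) and Hdac8 (220.7 kb), a histone deacetylase gene, had 1 domain each, over 1.26% and 0.612%. Beside Sgms2 on chromosome 3, Intu (173.5 kb), a ciliogenesis gene, met none. Cyp7b1 (171.9 kb), an oxysterol hydroxylase gene, had 2.01% covered, Adgrl2 (173.5 kb), an adhesion receptor gene, 1.04%, and Lekr1 (177.0 kb) 5.23%.

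**Figure D3:**
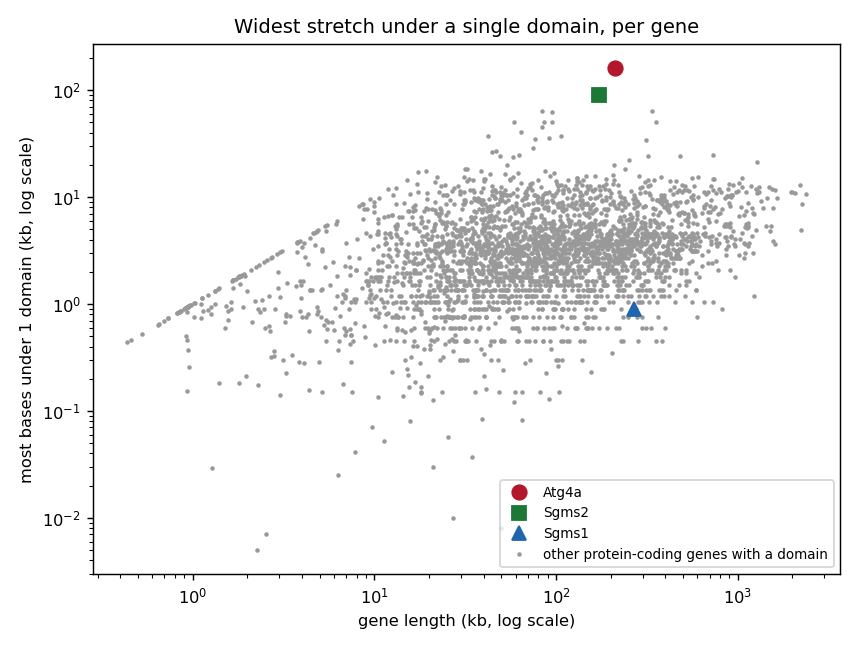
Gene length in kb (log scale) against the most bases under a single domain in kb (log scale), for each protein-coding gene that meets a domain. Atg4a and Sgms2 lie above all others, at 160.8 and 90.45 kb, while Sgms1 lies at 0.900 kb.

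Short domains lay on either side of both genes. The 200 kb flanks of Atg4a held 3 domains of 2.85 to 6.30 kb, which covered 12.45 kb or 3.11% of the flanks, against 9.22% of X after its first 3 Mb. In flanks of 100 kb the share was 3.15%. The domain before the wide one ended 96.8 kb from it and the next began 118.5 kb after it, where the median gap on X was 28.8 kb. Gaps of at least 96.8 kb made up 16.3% of those on X. Of all domain bases in the Atg4a body and flanks, 92.8% belonged to the wide domain.

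The short domains around Sgms2 lay closer to the gene. Its 200 kb flanks held 3 domains of 1.05, 2.40 and 8.55 kb, which covered 12.0 kb or 3.00%, against 4.44% of chromosome 3 after its first 3 Mb. All 3 lay within 100 kb, so that in flanks of 100 kb the share was 6.0%, above that of the chromosome. The wide domain stood 34.8 kb from the next domain downstream in the gene and 77.8 kb from the next one upstream of it, and the median gap on chromosome 3 was 38.5 kb. Gaps of at least 34.8 kb made up 52.7% of those on chromosome 3. It held 85.7% of the domain bases in the body and flanks.

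Most neighbouring genes were free of domains. Of the 9 protein-coding neighbours within 200 kb of either gene, 2 shared a base with a domain, both beside Atg4a, where 14.1% of all protein-coding genes do. Tex13b, a gene named for expression in testis, lies 140.4 kb upstream of Atg4a. It had 1.38 kb under a domain, 27.0% of its short body, and its promoter window shared bases with that domain. Col4a6, which encodes a collagen chain of basement membranes, has its body 1.21 kb past the end of Atg4a and had 2.85 kb covered, 0.923% of its body. Psmd10, which encodes a proteasome assembly chaperone, overlaps the upstream end of Atg4a and met no domain. Vsig1, an immunoglobulin-family membrane protein gene, and Mid2, a ubiquitin ligase gene, met none either. With 2 genes in question, no more than the count can be drawn from these neighbours.

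Since 14.1% of all protein-coding genes meet a domain, a neighbour without one is the common state. None of the 4 protein-coding neighbours of Sgms2 met a domain. They were Cyp2u1, a cytochrome P450 gene 14.8 kb downstream, Hadh, an enzyme of mitochondrial fatty acid oxidation 46.9 kb downstream, Lef1, a transcription factor of Wnt signalling 94.6 kb downstream, and Papss1, a sulfate-activating enzyme 73.3 kb upstream. The nearest domains lay 3.74 kb from Cyp2u1, 3.85 kb from Hadh, 51.6 kb from Lef1 and 14.6 kb from Papss1. The 10 other annotated genes near Atg4a or Sgms2, all noncoding RNA genes or pseudogenes, met none, where 10.1% of all annotated genes that are not protein-coding do, so this count is no result about them. Among them, Gm36753 overlaps starts 1 and 2 of Sgms2 and the pseudogene Gm43116 lies inside the Sgms2 body, 12.5 kb from the wide domain.

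Of the 4 paralogues Atg4b, Atg4c, Atg4d and Sgms1, 1 met a domain, namely Sgms1. Since 14.1% of all protein-coding genes meet one, a gene without a domain is the common state. Among protein-coding genes of 150 to 300 kb, a range that includes Sgms1, 54.9% meet one. Where Atg4a had 160.8 kb under a domain, the other proteases that process ATG8-family proteins, Atg4b (34.7 kb long, chromosome 1), Atg4c (108.1 kb, chromosome 4) and Atg4d (9.63 kb, chromosome 9), had 0 kb. Where Sgms2 had 93.6 kb covered, Sgms1 (267.2 kb long, chromosome 19), the sphingomyelin synthase of the Golgi, had 0.900 kb in a single domain, 0.337% of its body. The Sgms1 domain lay 135.7 kb after the upstream end of the gene. The 4 paralogues had 8 promoter windows in RefSeq, and none shared a base with a domain. Of all 21045 windows of protein-coding genes 1.38% did, so this count is no result about the paralogues. Bodies of so different a length cannot be compared by overlap alone.

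The flanks of the paralogues differed among themselves. Those of Atg4b held 8 domains over 9.07% of their length, the widest with 15.45 kb, and 7 of the 8 lay downstream. The flanks of Atg4c held 1 domain of 3.90 kb and those of Atg4d none, with the nearest domain 244.6 kb away. The flanks of Sgms1 held 2 domains, of which the one of 4.05 kb lay inside the neighbouring Asah2, which encodes neutral ceramidase. The Atg4a and Sgms2 flanks, at 3.11% and 3.00%, lay between those of Atg4b and Sgms1 (1.84%).

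**Figure D4:**
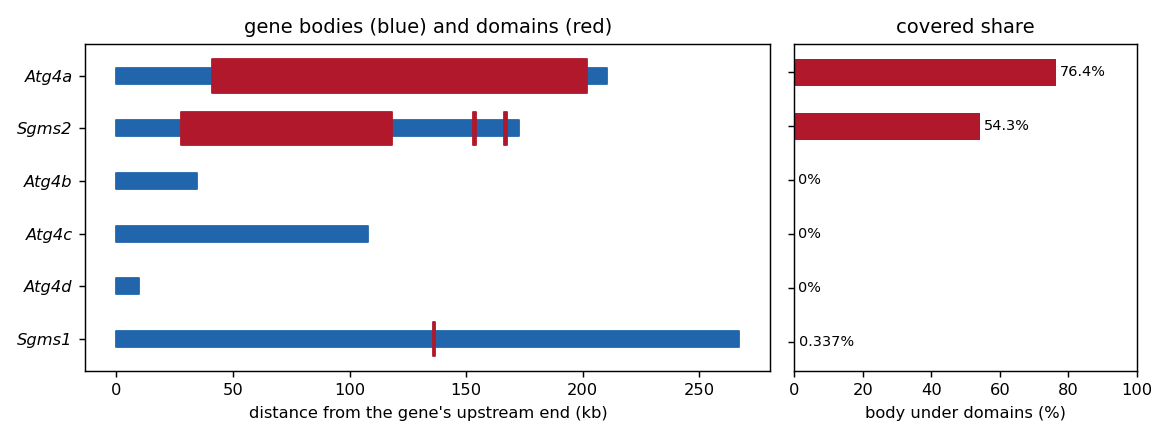
Gene bodies (blue, left) with domains inside them (red) by distance in kb from the upstream end, and share of the body under domains in percent (right), for Atg4a, Sgms2 and their paralogues. Atg4a (76.4%) and Sgms2 (54.3%) are covered over more than 50% of the body, and the 4 paralogues over at most 0.337%.

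Other genes of the same pathways met domains in a share near that of protein-coding genes at large. Apart from Atg4a and Sgms2, 7 of 66 listed genes of autophagy and sphingolipid metabolism did (10.6%, against 14.1% of all protein-coding genes), which is no result about these pathways. The highest covered share among the 7 was 12.6%, and their median length was 143.1 kb, against 25.5 kb for the 59 without a domain.

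Among 32 autophagy genes, 3 met a domain (9.38%, against 14.1% of all protein-coding genes). Atg7, whose product activates ATG8 and ATG12 proteins for conjugation, had 2.55 kb covered (1.17%), and Atg10, a conjugating enzyme for ATG12, had 1.95 kb (0.674%). Pik3c3, the kinase that makes the phosphoinositide of forming autophagosomes, had 6.45 kb (7.82%). None of the 5 ATG8-family substrate genes met a domain, among them Map1lc3a, Map1lc3b and Gabarap. Their median length was 8.32 kb, and beside a share of 14.1% this count is no result about them.

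Among 34 sphingolipid genes, 4 met a domain (11.8%, against 14.1% of all protein-coding genes). Kdsr, a reductase of ceramide synthesis, had 4.95 kb covered (12.6%), and Sptlc3, a subunit of serine palmitoyltransferase, had 4.80 kb in 2 domains (3.35%). Asah2 had 4.05 kb (3.42%) and Sgms1 0.900 kb. Samd8, a further member of the synthase family, which makes ceramide phosphoethanolamine, met none, and neither did any of 7 sphingomyelinase genes. The median length of the latter was 17.3 kb, and beside the share of all protein-coding genes their count is no result about them.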

How the data were processed

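H4K20me3 ChIP-seq libraries of mouse embryonic stem cells are summarised in 1 deposited list of domain positions. The authors called the domains with RSEG, per the file name; no version, threshold or choice of libraries and times is stated in the labels or the file. Bowtie2 2.3.4.1, SAMtools 1.1, deepTools, bedtools and the build mm10 are named, per the submitters' processing notes. The builds mm9, dm6 and GRCm38 are named there too. All overlaps here read the list on mm10, and other builds were not tried. The list holds no signal, score or depth, so counting error is unknown and no test across times was made.

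Gene positions, biotypes and promoter windows came from RefSeq tables of GRCm38.p6, the assembly of mm10. Kept were 49214 of 49997 annotated genes, those of chromosomes 1 to 19 and X that begin after the first 3 Mb. Domain starts were changed to count from 1. A gene met a domain when at least 1 base was shared. Rank, gap and width comparisons on chromosomes leave out the 5 domains from a first base. The overlap code was checked against bedtools and on simulated data. Strand came from the promoter table. Exons were not used here.

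Genes, lists and comparisons were chosen with earlier results of these data known. Named are Atg4a, Sgms2, 4 paralogues, all protein-coding neighbours within 200 kb, list genes with a domain, the 5 genes with the next widest single domain and the 4 nearest in length on each chromosome. Of the last, 1 gene is not reported here. Catspere2, Rasgrf2, Hsf3, Veph1, Col6a4, Cct6a, Drc1, Samd8, Gm36753, Gm43116 and the substrate genes without a domain were named after their values were seen. Python 3.11.15, numpy 2.4.6, pandas 2.3.3 and matplotlib 3.10.9 were used.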

Additional observations from a re-analysis of the deposited data

How the results depend on the processing

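Of 34 values recomputed under other settings, 19 stayed within 1.5 times the reported one. The covered bases of Atg4a and Sgms2 were among them under each setting run for them (neighbours less than 5 kb apart joined, no domain under the median width, no domain under 10 kb), at 160.8 kb each time for Atg4a and 90.45 to 93.6 kb for Sgms2. With domains of 10 kb or wider, the flanks of either gene had 0 bases covered. In that setting 0 of 4 paralogues, 0 of 66 list genes and 0 of 9 protein-coding neighbours met a domain. Without domains under the median width, these counts were 0 paralogues, 3 list genes and 1 neighbour. The share of all protein-coding genes was not computed for these 2 width settings, so their counts are no result about the genes. With at least 50% of the body required, all 3 counts were 0. Over all protein-coding genes 0.739% reach that share, so a count of 0 is the common state. Flanks of 100 kb held 6300 covered bases around Atg4a and 12000 around Sgms2. Of 7 protein-coding neighbours there, 1 met a domain, beside 14.1% of all protein-coding genes. Flanks of 500 kb held 21000 bases around Atg4a and 27150 around Sgms2. As a share of the flanks, Sgms2 stood at 6.0% with 100 kb, 3.00% with 200 kb and 2.71% with 500 kb, so that it was above the 4.44% of chromosome 3 with the shortest flanks only. These shifts follow from shorter domains left out and from other window sizes. No paired analysis was possible because the list names no sample, and leaving out replicates was not possible for the same reason. Depth is unknown here.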

Other observations

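Among domains wider than 45 kb, widths gathered near 50 kb. On chromosomes 1 to 19 and X, 9 domains were at least 49.5 kb and under 51 kb wide, against 2 from 48 to under 49.5 kb and 0 from 51 to under 52.5 kb. The domains inside Traf5 (50.55 kb), Pik3c2g (50.4 kb) and Drc1 (50.1 kb), which lie wholly within a protein-coding gene as those of Atg4a and Sgms2 do, belong to these 9. The domains next in width after that of Sgms2 within a protein-coding gene, in Ccdc148 (64.2 kb), Ccl21b (63.45 kb) and Atp6v0a2 (61.8 kb), do not. Unsequenced stretches as a source of these widths were not tested. This pattern was noticed after the data were seen.

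The annotation inside the widest domains also differed. Of 33 domains of 50 kb or wider, 15 held no end of any annotated gene, the Atg4a and Sgms2 domains among them. Of these 15, 7 shared bases with an annotated gene whose ends lie outside the domain. The same shares over all domains were not computed, so these counts are no result about wide domains.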
